A study of Arabidopsis thaliana with 8 samples.

Results

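The comparison asked for which genes the effect of the formin inhibitor SMIFH2 differed from the effect of the fh1-1 mutation in whole Arabidopsis thaliana seedlings. For each gene the fh1-1 effect was the mutant minus wild type on solid medium, the SMIFH2 effect was treated minus control wild type in liquid medium, and the difference was the SMIFH2 effect minus the fh1-1 effect. All values are log2 expression, so a difference of 1 means that one fold change was double the other, and a positive value means that the SMIFH2 effect was the higher. The brightest probe set paired with a single gene stood for each gene, and 123 of 16554 genes had effects that differed at an adjusted p under 0.05 (limma, Benjamini-Hochberg over all genes tested). All 8 arrays of the series entered the contrast.

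Formins are proteins that start actin filaments and lengthen them through their FH2 domain. In plants the filaments guide the traffic of vesicles that carry membrane and cell wall material, and formins of the class that holds FH1 are anchored in the plasma membrane. SMIFH2 is a small molecule that inhibits FH2 domains and is not directed at 1 formin, whereas fh1-1 is a mutant allele of FH1 alone.

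Each of the 4 groups held 2 arrays from separate pools of about 120 seedlings of the Columbia background, aged 7 days. Wild type and fh1-1 on solid medium had grown under 16 h of light and 8 h of dark throughout, and the wild type was a sister line from the backcross of the mutant. The other 2 groups were the same wild-type line, moved after 6 days to shaken liquid medium under continuous light for 1 day, either as control or with 20 uM SMIFH2. A solvent for the liquid control is not named in the sources used here. The mutant was impaired for its whole life and the treated seedlings for 1 day, and the pairs also differed in medium, shaking and light, so inhibitor, duration, medium and light cannot be told apart in the difference.

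The arrays had median log2 values of 3.89 to 3.96 over all probe sets. Within a group the arrays correlated at r = 0.977 to 0.986, and arrays of fh1-1 on solid medium correlated with arrays of SMIFH2 in liquid medium at r = 0.981 to 0.983, inside that range despite the other genotype and medium. Each of these groups was farther from its own control, at r = 0.945 to 0.954 for fh1-1 and 0.955 to 0.965 for SMIFH2. No probe set was listed for FH1, and its transcript could not serve to check the mutant label. Markers of root and of shoot were both measured, with means over the 8 whole-seedling arrays of 12.25 for the root marker PYK10 and 10.37 for the shoot marker RCA, but the guard-cell lineage gene MUTE lay at 2.02, near the 25th percentile of the genes (1.98 to 2.11).

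The SMIFH2 effect was higher than the fh1-1 effect for 59 genes and lower for 64. These are 0.743% of the genes tested, 0.356% in the higher and 0.387% in the lower direction. The fh1-1 effect itself passed in 3734 genes (22.6%) and the SMIFH2 effect in 2459 genes (14.9%). The differences that passed ran from -3.63 to 2.85, and none was smaller than 1.13 in size. The median standard error of a difference was 0.25 over all genes, for a 95% interval that reached about 0.56 to each side, and 373 of the 496 genes with a difference of at least 1 in size did not pass. The number of arrays limits the precision. The labels call the pools biological replicates, and the p-values measure the spread between them.

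**Figure D1:**
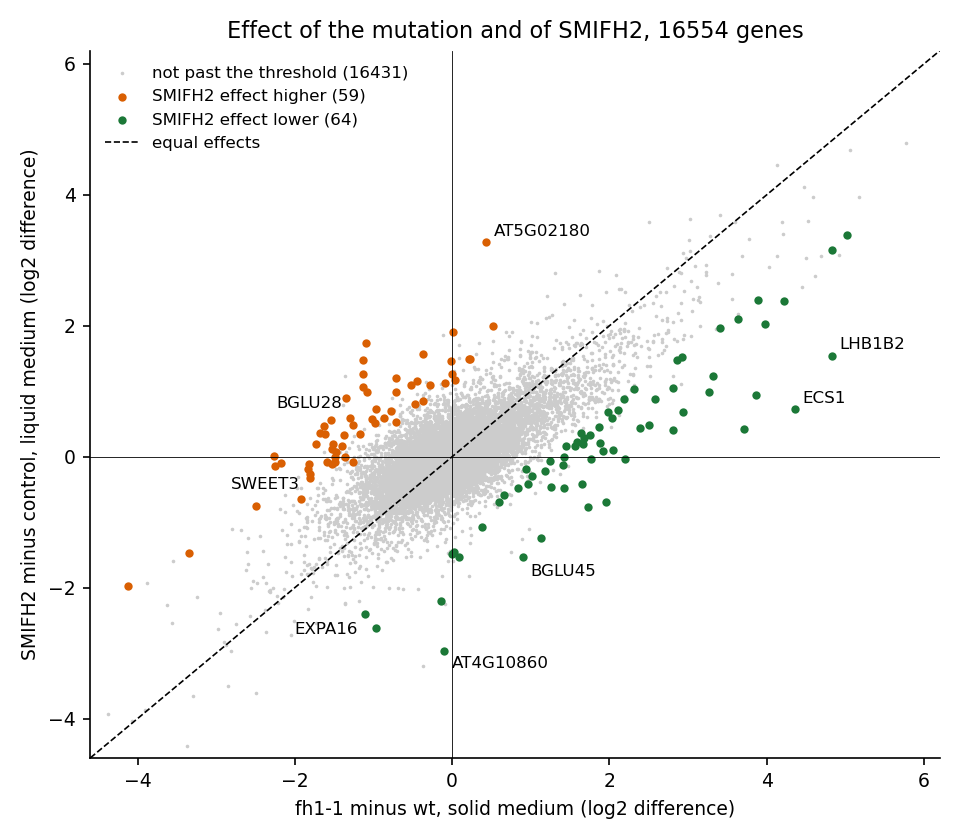
Each point is a gene, with the log2 effect of fh1-1 on solid medium on the horizontal axis and the log2 effect of SMIFH2 in liquid medium on the vertical axis. Orange and green points are the 59 and 64 genes past the threshold, which lie above and below the dashed line of equal effects.

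The fh1-1 effect was the larger in size in 92 of the 123 genes. In 58 of the 123 genes the fh1-1 effect passed and the SMIFH2 effect did not, with 26 differences higher and 32 lower. In 20 genes the reverse held, in 26 both effects passed with the same sign, and in 19 both passed with opposite signs. Among the 26 genes with the same sign, 20 were higher in both comparisons and 6 lower in both, and the fh1-1 effect was the larger in 24. These counts describe how the contrast was met, since both effects are part of it.

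In these genes the 2 wild-type control groups were mostly farther apart than the 2 impaired groups. For 86 of the 123 genes the group that stood apart from the other 3 was wild type on solid medium, above them in 37 genes and below them in 49. For 26 genes it was control wild type in liquid, for 6 it was fh1-1 and for 5 it was SMIFH2. In 121 of the 123 genes both arrays of that group lay outside the range of the other 6 arrays. The median size of the liquid minus solid difference in wild type was 1.42 over the 123 genes and 0.19 over all genes. The median size of the difference between SMIFH2 in liquid and fh1-1 on solid medium was 0.38 over the 123 genes and 0.14 over all genes. Across all genes, the first of these comparisons passed in 779 genes (4.71%) and the second in 24 (0.145%). The difference of effects equals the second comparison minus the first, and in 112 of the 123 genes the wild-type comparison was the larger in size. Genes chosen for a large difference of effects are bound to be far apart in either or both comparisons. These values thus describe how the contrast was met, and the group that stood apart was not counted over all genes.

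**Figure D2:**
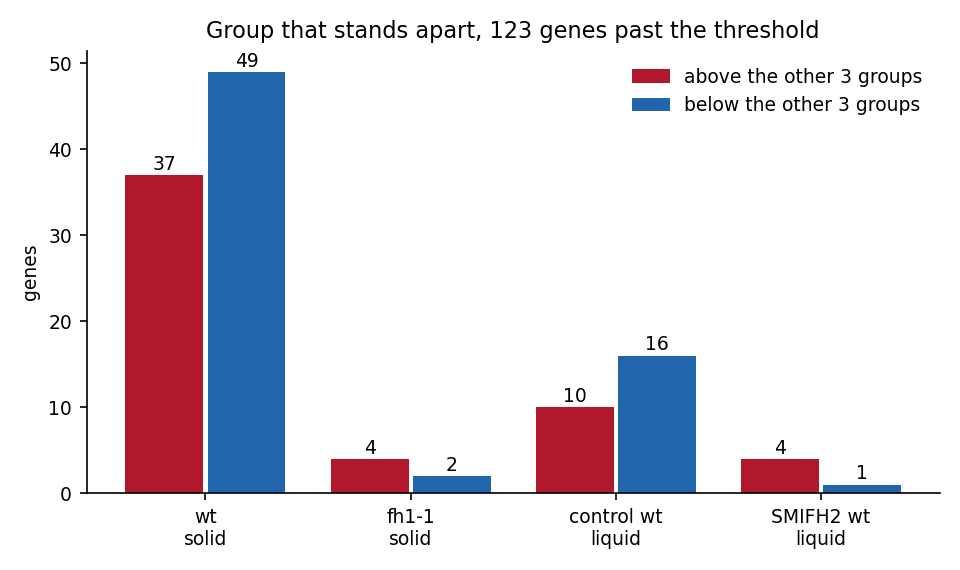
Bars count the 123 genes by the group whose removal left the other 3 group means closest together, split by whether that group lay above or below them. Wild type on solid medium stood apart in 86 genes, fh1-1 in 6 and SMIFH2 in 5.

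Among genes with a symbol the difference with the lowest adjusted p belonged to LHB1B2 (AT2G34420), a chlorophyll-binding protein of the light-harvesting antenna of photosystem II. Its log2 values were 5.77 and 6.26 in wild type on solid medium, 10.88 and 10.80 in fh1-1, 9.31 and 9.49 in control liquid and 10.94 and 10.94 with SMIFH2. Both impaired groups lay close to 11, and the controls lay apart from each other, the liquid control well above the solid one. LHB1B2 thus rose by 4.83 ± 0.18 (SE, 2 arrays per group) in fh1-1 and by 1.54 ± 0.18 with SMIFH2, a difference of -3.29 ± 0.26 (adjusted p = 0.0016, limma). Genes of this antenna family are near-identical, and whether the probe set also reads its relatives was not tested.

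Of the 10 measured photosystem and antenna genes, LHB1B2 was the 1 to pass, where 0.743% of all genes passed. Of the 10, 4 had an unadjusted p under 0.05, all lower, where 6.07% of all genes did. Without array 2 of control liquid 7 of them did. Their median difference was -0.49, against 0.01 over all genes. PSAN, a photosystem I subunit, had values of 6.91 and 6.91 in wild type on solid medium, 10.19 and 9.95 in fh1-1, 8.11 and 7.95 in control liquid and 9.94 and 10.12 with SMIFH2. The impaired groups overlapped and the controls did not. The difference was -1.16 ± 0.22 at an adjusted p of 0.054, just outside the threshold. PSBW, of photosystem II, had -1.07 ± 0.22 (adjusted p = 0.066) and PSAE-1, of photosystem I, -0.92 ± 0.21 (adjusted p = 0.095).

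Of 5 Calvin cycle and photorespiration genes none passed and 2 were lower at an unadjusted p under 0.05, with a median of -0.40. Over all genes, 0.743% passed, and 6.07% were lower and 6.46% higher at that unadjusted p. SBPASE, the sedoheptulose bisphosphatase of that cycle, had -0.79 ± 0.21 (adjusted p = 0.14). Of 8 tetrapyrrole and carotenoid genes none passed, 3 were lower and 1 was higher at that unadjusted p. The one higher was hemb2, a porphobilinogen synthase gene, at 2.17 ± 0.42 (adjusted p = 0.056). Of 63 genes of the plastid genome none passed and 9 were lower at that unadjusted p, with a median of -0.18. That count was 5 when array 2 of wild type on solid medium was left out and 22 with a trended robust prior. NdhL, a subunit of the chloroplast NDH complex, had -1.07 ± 0.23 (adjusted p = 0.077).

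The summed levels of shoot and root markers also differed between the groups. The summed log2 level of 9 shoot markers was 54.8 to 55.2 in wild type on solid medium, 64.4 to 65.8 in fh1-1, 59.6 to 60.6 in control liquid and 64.6 to 65.9 with SMIFH2. None of the 9 passed for the difference, where 0.743% of all genes did, and the median of the 9 was -0.56. At an unadjusted p under 0.05, 5 were lower, where 6.07% of all genes were. The count of 5 was 2 when array 1 of fh1-1 or array 2 of its wild type was left out, and 3 when array 2 of control liquid or either SMIFH2 array was. FMA, a guard-cell transcription factor, had -1.05 ± 0.25 (adjusted p = 0.11), SPCH, which starts the stomatal lineage, had -0.62 ± 0.27 (adjusted p = 0.38), and YAB2, of the lateral organs, had -0.70 ± 0.29 (adjusted p = 0.36). Some shoot markers are photosynthesis genes, and the part of organ shares in the photosynthesis values was not tested. In these pools of whole seedlings, fewer cells of a type and less RNA per cell cannot be told apart.

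The 9 root markers summed to 70.4 to 71.6 in wild type on solid medium, 69.7 to 71.1 in fh1-1, 63.5 to 63.6 in control liquid and 69.8 to 70.1 with SMIFH2. The sum was low in control liquid alone, and the sums of the other 3 groups were close together. The fh1-1 effects behind these sums had both signs. They were above 0 for EXPA18 (1.15), EXPA7 (0.88) and NAI2 (0.35). They were below 0 for BGLU22 (-0.85), JAL33 (-0.71), JAL34 (-0.53), BGLU21 (-0.42), JAL22 (-0.37) and PYK10 (-0.09). Close sums thus do not mean that each marker kept its level. The median difference of the root markers was 0.90. Of the 9 markers 1 passed, higher, where 0.356% of all genes did. At an unadjusted p under 0.05, 6 were higher, where 6.46% of all genes were. The gene that passed was JAL33 (AT3G16450), a jacalin-related lectin, with 5.63 and 5.67 in wild type on solid medium, 4.91 and 4.97 in fh1-1, 4.64 and 4.50 in control liquid and 5.24 and 4.96 with SMIFH2. It was highest in wild type on solid medium and lowest in control liquid. JAL33 fell by 0.71 in fh1-1 and rose by 0.53 with SMIFH2, a difference of 1.24 ± 0.22 (adjusted p = 0.038, limma).

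The other root markers include lectins and genes of the endoplasmic reticulum bodies of roots, which store beta-glucosidases. JAL22, a lectin, had a difference of 1.27 ± 0.26 (adjusted p = 0.066) and JAL34, another lectin, 0.90 ± 0.20 (adjusted p = 0.093). NAI2, which the formation of these bodies requires, had 0.86 ± 0.23 (adjusted p = 0.15). PYK10, their main beta-glucosidase, had 0.34 ± 0.20 (adjusted p = 0.54). The differences of the root-hair expansins EXPA7 and EXPA18 were near 0, at 0.09 ± 0.31 and 0.07 ± 0.38. Both genes rose in both comparisons. EXPA7 rose by 0.88 in fh1-1 and 0.97 with SMIFH2, and EXPA18 by 1.15 and 1.22. Values for the relatives JAL33 and JAL34, and for BGLU21 and BGLU22, are uncertain where probes read both copies.

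Beta-glucosidases, which cleave sugars from stored glucosides, had 3 of 23 genes past the threshold, 1 higher and 2 lower, where 0.743% of all genes passed. BGLU45 (AT1G61810), which cleaves monolignol glucosides, had values of 3.55 and 3.25 in wild type on solid medium, 4.30 and 4.30 in fh1-1, 5.33 and 5.23 in control liquid and 3.62 and 3.89 with SMIFH2. Control liquid was the highest group and fh1-1 the second. BGLU45 rose by 0.90 in the mutant and fell by 1.53 with the inhibitor, a difference of -2.42 ± 0.24 (adjusted p = 0.0080, limma).

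BGLU28 (AT2G44460), a glucosidase known for its rise under sulfur shortage and for breaking down glucosinolates, had the opposite pattern. Its values were 5.48 and 5.17 in wild type on solid medium, 4.17 and 3.88 in fh1-1, 4.70 and 4.70 in control liquid and 5.21 and 5.36 with SMIFH2. Here fh1-1 stood apart below the other groups. BGLU28 fell by 1.30 in fh1-1 and rose by 0.59 with SMIFH2, a difference of 1.89 ± 0.24 (adjusted p = 0.014, limma), and SMIFH2 in liquid exceeded fh1-1 on solid medium by 1.27 (adjusted p = 0.023).

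BGLU33 (AT2G32860) had 5.18 and 4.76 in wild type on solid medium, 7.23 and 7.48 in fh1-1, 6.48 and 6.51 in control liquid and 7.03 and 6.83 with SMIFH2. Wild type on solid medium was low and the other 6 arrays lay between 6.48 and 7.48. The difference was -1.95 ± 0.26 (adjusted p = 0.017, limma). Without passing, BGLU46 and BGLU47, relatives of BGLU45, had -1.03 ± 0.25 (adjusted p = 0.11) and -1.05 ± 0.33 (adjusted p = 0.22), BGLU44 had -0.72 ± 0.21 (adjusted p = 0.18), and the root genes BGLU21 and BGLU22 had 1.16 ± 0.30 (adjusted p = 0.13) and 1.06 ± 0.24 (adjusted p = 0.099). The family thus held values of both signs, and its median was 0.16 with 4 members higher and 7 lower at an unadjusted p under 0.05, where 6.46% and 6.07% of all genes were.

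EXPA16 (AT3G55500), an expansin that loosens walls, had 4.98 and 5.23 in wild type on solid medium, 4.05 and 3.95 in fh1-1, 5.85 and 6.05 in control liquid and 3.52 and 3.58 with SMIFH2. Both impaired groups lay below both controls. EXPA16 fell by 1.10 in fh1-1 and by 2.40 with SMIFH2, a difference of -1.30 ± 0.22 (adjusted p = 0.033, limma). It was the 1 gene to pass among 34 expansins and xyloglucan enzymes, where 0.743% of all genes passed. At an unadjusted p under 0.05, 5 of the 34 were higher and 5 lower, where 6.46% and 6.07% of all genes were. XTH16, a xyloglucan endotransglucosylase, had -1.51 ± 0.34 (adjusted p = 0.095).

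ATPMEPCRB (AT4G02330), a pectin methylesterase, had 5.04 and 4.77 in wild type on solid medium, 4.95 and 4.84 in fh1-1, 6.97 and 6.62 in control liquid and 5.39 and 5.23 with SMIFH2. Control liquid was high and the other 3 groups lay within 1 unit. Its fh1-1 effect was -0.01 and its SMIFH2 effect -1.49, a difference of -1.48 ± 0.25 (adjusted p = 0.032, limma). ECS1 (AT1G31580), a cell wall protein, had the largest difference among all 123 genes and also the widest error. Its values were 1.82 and 2.94 in wild type on solid medium, 7.02 and 6.44 in fh1-1, 8.13 and 6.65 in control liquid and 7.88 and 8.35 with SMIFH2. The first wild-type array lay below the 25th percentile of the genes, and the liquid control arrays were farther apart than the means of control and treated seedlings. The difference was -3.63 ± 0.67 (adjusted p = 0.046, limma), and -2.89 to -4.38 without single arrays.

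KIN2 (AT5G15970), a cold and abscisic acid responsive protein, had 6.74 and 6.30 in wild type on solid medium, 8.58 and 8.31 in fh1-1, 8.28 and 7.98 in control liquid and 8.14 and 8.29 with SMIFH2. Wild type on solid medium was low, and the other 6 arrays lay between 7.98 and 8.58. KIN2 rose by 1.92 in fh1-1 while its SMIFH2 effect was 0.08, a difference of -1.84 ± 0.28 (adjusted p = 0.024, limma). It was the 1 gene to pass of 17 cold, abscisic acid and dehydration genes, where 0.743% of all genes passed. At an unadjusted p under 0.05, 0 of the 17 were higher and 2 lower, where 6.46% and 6.07% of all genes were. The median of the 17 was -0.02. COR15A, a chloroplast protein of cold acclimation, had effects of 2.66 and 2.09 and a difference of -0.57 ± 0.29 (adjusted p = 0.46).

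CHX16 (AT1G64170), of the cation and proton exchanger family, had 3.71 and 3.10 in wild type on solid medium, 5.33 and 5.56 in fh1-1, 5.79 and 5.76 in control liquid and 5.82 and 5.92 with SMIFH2. Wild type on solid medium was the low group, and the difference was -1.95 ± 0.29 (adjusted p = 0.022, limma). CCL (AT3G26740), the clock-related CCR-LIKE gene, had 9.20 and 9.36 in wild type on solid medium, 10.72 and 10.75 in fh1-1, 10.57 and 10.67 in control liquid and 10.71 and 10.83 with SMIFH2. Its arrays were again low in wild type on solid medium alone, with a difference of -1.30 ± 0.21 (adjusted p = 0.028, limma). None of 12 listed light signalling and clock genes passed, where 0.743% of all genes did, and the median of the 12 was -0.05.

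Sugar transporters of the SWEET family, which export sucrose or hexoses, held 1 gene that passed among 15, where 0.743% of all genes did. At an unadjusted p under 0.05, 6 of the 15 were higher and 0 lower, where 6.46% and 6.07% of all genes were. SWEET3 (AT5G53190) had 3.72 and 3.61 in wild type on solid medium, 1.73 and 1.93 in fh1-1, 2.25 and 2.20 in control liquid and 2.04 and 2.04 with SMIFH2. It was high in wild type on solid medium alone, and the other arrays were near the 25th percentile of the genes. SWEET3 fell by 1.84 in fh1-1, and the difference was 1.65 ± 0.21 (adjusted p = 0.014, limma). The 6 higher members include SWEET2, a vacuolar transporter, at 1.09 ± 0.25 (adjusted p = 0.097). They also include SWEET11, a phloem-loading sucrose exporter, at 1.00 ± 0.25 (adjusted p = 0.12), and SWEET13 at 0.81 ± 0.27 (adjusted p = 0.24). SWEET2 and SWEET11 had fh1-1 effects of -1.225 and -1.176 and SMIFH2 effects of -0.135 and -0.176. SWEET13, at a mean level of 2.84, had effects of 0.225 and 1.033. Their differences thus shared a sign but came from different movements. Without array 2 of SMIFH2 the count of 6 was 3.

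At an unadjusted p under 0.05, 5 of 11 carbon starvation and amino acid breakdown genes were lower and 0 higher. Over all genes, 6.07% were lower and 6.46% higher at that p. None of the 11 passed, where 0.743% of all genes did, and the median of the 11 was -0.49. With array 1 left out of either group on solid medium, 3 were lower. The 5 include DPE1, a starch-degrading enzyme of the plastid, at -0.88 ± 0.22 (adjusted p = 0.12), and PPDK, pyruvate phosphate dikinase, at -0.77 ± 0.21 (adjusted p = 0.14). DPE1 had effects of 2.02 and 1.14, both above 0, and PPDK effects of -0.78 and -1.54, both below 0. Equal signs of the difference here stood for opposite movements.

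UGT71C1 (AT2G29750), a glucosyltransferase of phenolic compounds, had 3.53 and 3.69 in wild type on solid medium, 3.07 and 3.21 in fh1-1, 2.67 and 2.57 in control liquid and 3.43 and 3.43 with SMIFH2. Control liquid was the low group. UGT71C1 fell by 0.47 in fh1-1 and rose by 0.81 with SMIFH2, a difference of 1.28 ± 0.21 (adjusted p = 0.029, limma). It was the 1 gene to pass of 53 glycosyltransferases of its class, where 0.743% of all genes passed. At an unadjusted p under 0.05, 4 of the 53 were higher and 1 lower, where 6.46% and 6.07% of all genes were.

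CTF2A (AT2G35660) was among the 5 genes in which SMIFH2 stood apart. Its values were 2.82 and 3.27 in wild type on solid medium, 3.57 and 3.56 in fh1-1, 2.20 and 2.44 in control liquid and 4.35 and 4.26 with SMIFH2. The treated arrays were the highest and the liquid control arrays the lowest. The SMIFH2 effect was 1.99 ± 0.18 and the fh1-1 effect 0.52 ± 0.18, a difference of 1.48 ± 0.26 (adjusted p = 0.035, limma).

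**Figure D3:**
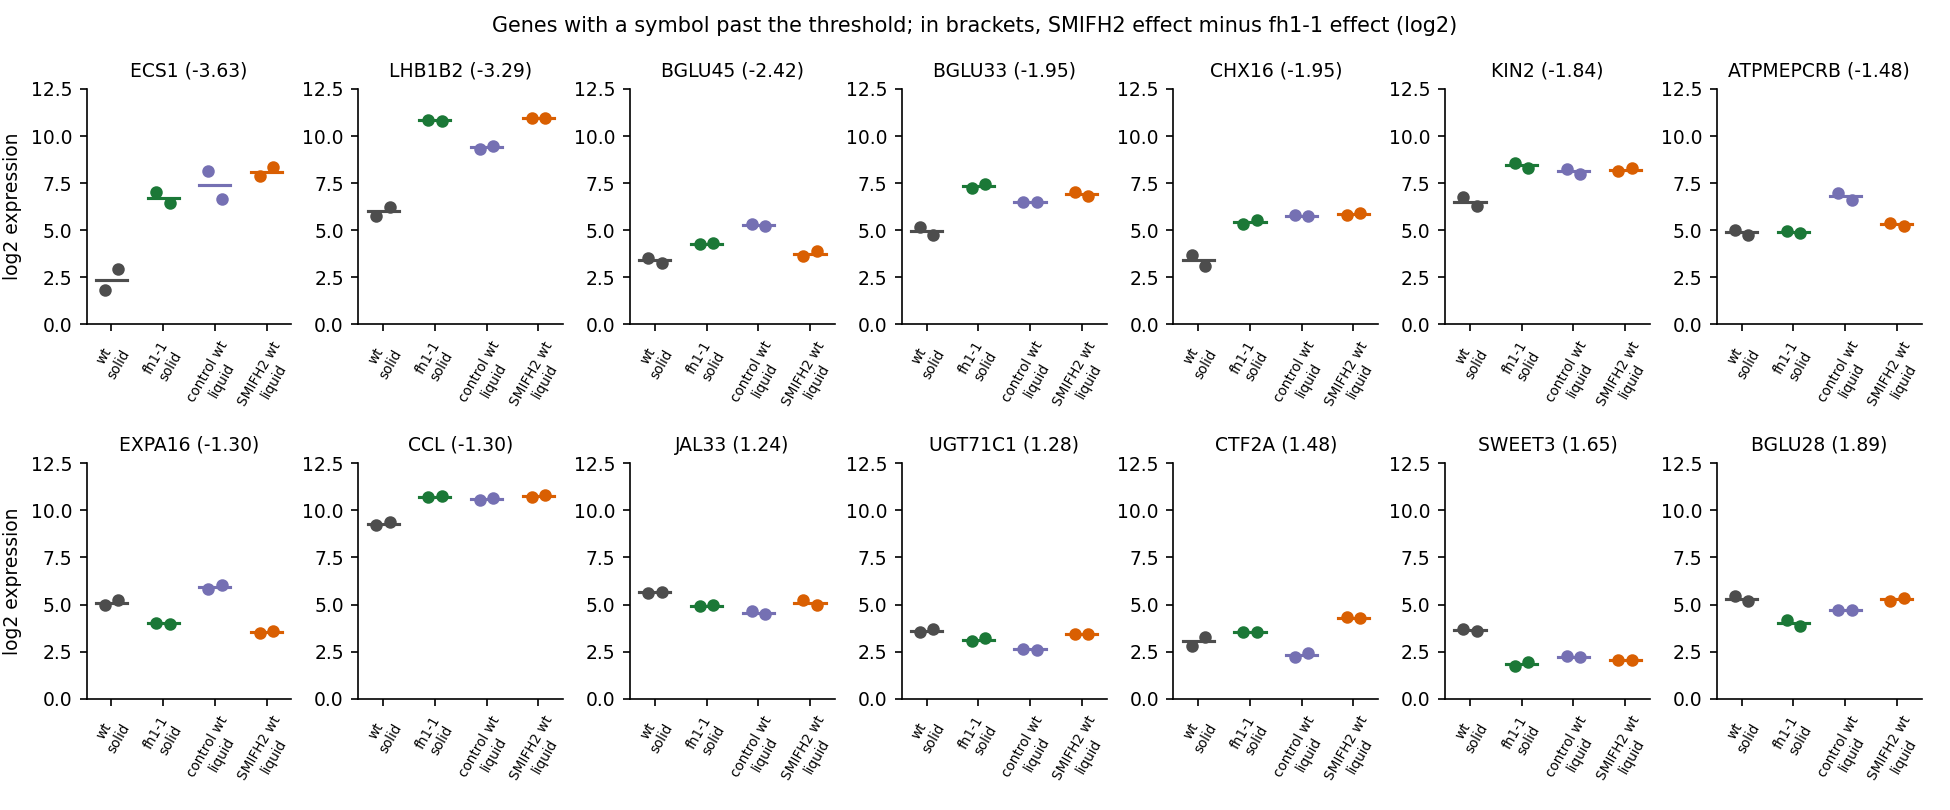
Points are the log2 expression values of the 2 arrays of each group for the 14 genes with a symbol that passed, lines are group means, and the number in brackets is the SMIFH2 effect minus the fh1-1 effect. In ECS1, LHB1B2, BGLU33, CHX16, KIN2 and CCL the 2 arrays of wild type on solid medium lie below all others, and in SWEET3 and JAL33 above them.

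The other 109 genes that passed were known here by locus code only. AT5G02180 had the highest difference of all and passed at the same adjusted p as LHB1B2. Its values were 5.67 and 5.85 in wild type on solid medium, 6.12 and 6.24 in fh1-1, 3.71 and 3.82 in control liquid and 7.04 and 7.05 with SMIFH2. It was low in control liquid alone, and the difference was 2.85 ± 0.21 (adjusted p = 0.0016, limma). AT4G11210 followed at 2.84 ± 0.31 (adjusted p = 0.0096), with 5.41 and 5.73 in wild type on solid medium, 4.70 and 4.23 in fh1-1, 3.24 and 3.28 in control liquid and 4.77 and 5.24 with SMIFH2, so that control liquid was again low. AT4G12545 had 4.02 and 4.37, 2.996 and 3.12, 3.48 and 2.94, and 4.53 and 4.83 in the same order of groups. It fell by 1.14 in fh1-1 and rose by 1.47 with SMIFH2, a difference of 2.61 ± 0.30 (adjusted p = 0.011).

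In the lower direction the first locus was AT5G58390, with 3.12 and 2.43 in wild type on solid medium, 6.64 and 6.34 in fh1-1, 6.12 and 6.67 in control liquid and 6.73 and 6.90 with SMIFH2. It was low in wild type on solid medium alone, and the difference was -3.28 ± 0.36 (adjusted p = 0.0097, limma). AT5G42530 had the same pattern, with 3.94 and 4.39 in wild type on solid medium and 7.92 to 9.82 on the other 6 arrays, and a difference of -2.92 ± 0.47 (adjusted p = 0.028). AT4G10860 was the reverse case. It was at 5.01 and 4.48 in control liquid and at 1.31 to 1.96 on the other 6 arrays, below the 25th percentile of the genes, so its level outside control liquid was not shown to be above background. Its difference was -2.87 ± 0.30 (adjusted p = 0.0096).

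Of 19 listed nutrient and ion transporters 1 passed, where 0.743% of all genes did. The list was matched by gene name and did not hold CHX16 or SWEET3, which also passed. The listed gene that passed was AT1G72120, of the nitrate and peptide transporter family, whose synonym in the annotation is NPF5.14. It had 7.23 and 7.37 in wild type on solid medium, 5.86 and 5.75 in fh1-1, 5.97 and 5.99 in control liquid and 5.94 and 6.01 with SMIFH2. Wild type on solid medium was high and the other 6 arrays lay between 5.75 and 6.01. The difference was 1.49 ± 0.20 (adjusted p = 0.019, limma).

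Of the genes that passed, 122 had a place in the order of nuclear protein-coding genes in the RefSeq annotation (TAIR10.1), and 6 pairs of them lay within 3 genes of each other. In 4 of these 6 pairs the differences had the same sign. AT4G11210 adjoined AT4G11190, at 2.25, BGLU33 adjoined AT2G32870, at -1.84, and AT1G72120 lay 3 genes from AT1G72140, at 1.89. AT5G26260 and AT5G26280, 3 genes apart, were at 1.93 and 1.26. In the remaining pairs the signs were opposite, with AT1G66430 and AT1G66440 at -1.27 and 2.045, and AT3G23480 and AT3G23510 at -1.36 and 2.10. How many such pairs arise among genes drawn from all those tested was not computed. Whether neighbouring copies are read by the same probes was not tested.

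In 19 genes the 2 effects passed with opposite signs. In 15 of them expression fell in fh1-1, by a median of -1.08 (range -1.35 to -0.47), and rose with SMIFH2, by a median of 0.90 (0.48 to 1.74). In the other 4 it rose in fh1-1, by a median of 0.78 (0.59 to 1.13), and fell with SMIFH2, by a median of -0.97 (-1.53 to -0.58). BGLU28, JAL33 and UGT71C1 were among the 15 and BGLU45 among the 4. In wild type, the liquid minus solid difference had a median of -1.38 in the 15 genes and 1.66 in the 4. The means of both impaired groups lay between those of the 2 control groups in 15 of the 19 genes. Such an order is possible only with opposite signs, by which these genes were chosen, and was not counted over other genes.

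Several genes with large effects in both comparisons did not pass for the difference. PIF7, a phytochrome-interacting transcription factor, rose by 4.20 in fh1-1 and by 3.58 with SMIFH2, a difference of -0.62 ± 0.23 (adjusted p = 0.30). MGL, the methionine gamma-lyase, fell by 3.90 and by 3.87, a difference of 0.03 ± 0.27 (adjusted p = 0.98), whose 95% interval ran from -0.56 to 0.63. GSTU20, a glutathione S-transferase, rose by 4.92 and 3.08, a difference of -1.84 ± 0.37 (adjusted p = 0.066). The 95% intervals, not adjusted for the number of genes, ran from -1.13 to -0.10 for PIF7 and from -2.66 to -1.01 for GSTU20. Both intervals were negative throughout. The MGL interval held both signs, so with 2 arrays per group any difference inside it remained possible.

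Of 37 gene lists with a measured member, 10 held a gene that passed, and these were 10 genes in all among 850. At the 0.743% of all genes that passed, lists of the size of the cytoskeleton ones would hold fewer than 1, and they held none. At an unadjusted p under 0.05, 6.46% of all genes were higher and 6.07% lower. Of 21 actin cytoskeleton genes 1 was higher and 3 lower at that p, with a median of -0.07. Of 26 microtubule genes 0 were higher and 2 lower, with a median of -0.14. In 52 jasmonate, wound, touch and pathogen response genes JAL33 was the 1 to pass, and 11 were higher and 8 lower at that unadjusted p. Of 20 antioxidant and redox genes none passed, 4 were higher and 1 lower, and NDB2, an external mitochondrial NADH dehydrogenase, had 1.28 ± 0.26 (adjusted p = 0.063) and MSRB4, a methionine sulfoxide reductase, 1.195 ± 0.29 (adjusted p = 0.11). At that p, 6 of 56 pectin, cellulose and arabinogalactan genes were higher and 2 lower. Of 41 subtilases and carboxypeptidases 3 were higher and 5 lower. The lists were matched by gene name, and the pectin list did not hold the pectin methylesterase ATPMEPCRB, which passed. SBT4.12, a subtilase, fell by 2.80 in fh1-1 and 1.10 with SMIFH2, a difference of 1.70 ± 0.34 (adjusted p = 0.066).

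**Figure D4:**
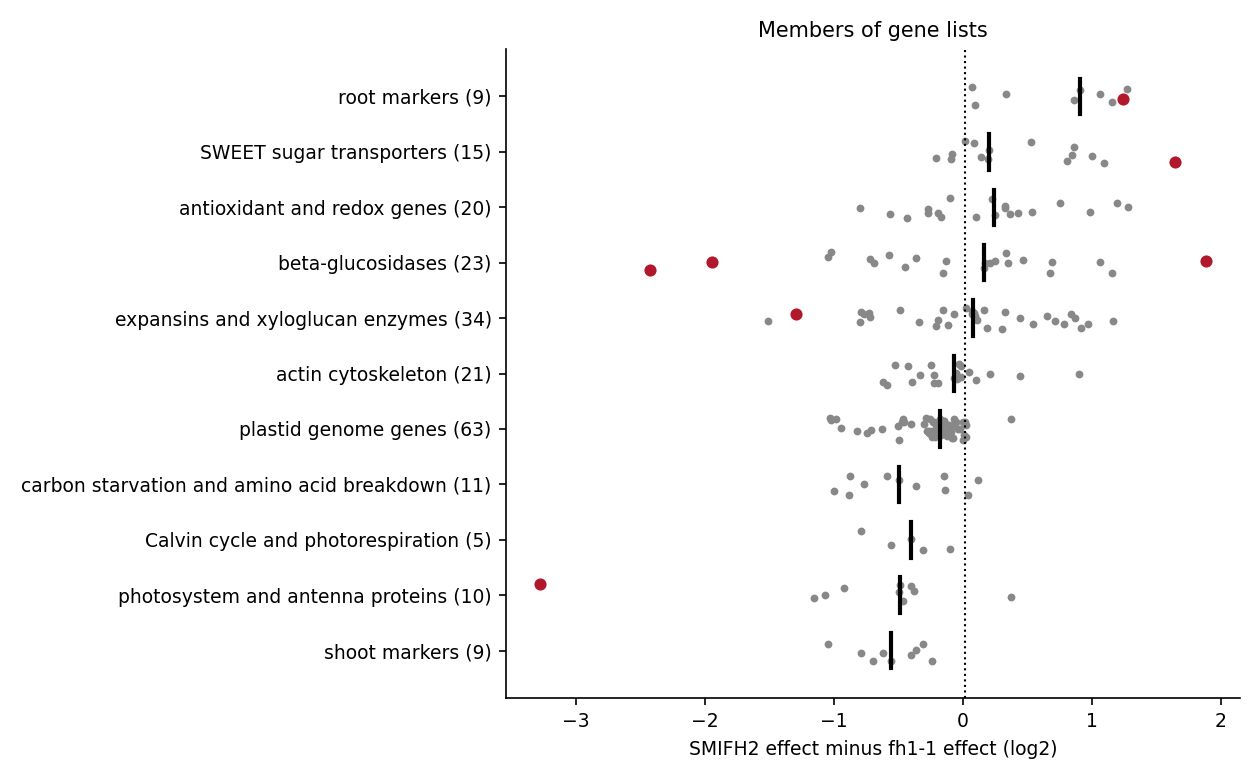
Points are list members placed by the SMIFH2 effect minus the fh1-1 effect on the log2 scale, with red points past the threshold, black bars at list medians and a dotted line at the median of all genes. Root markers have a median of 0.90 and shoot markers of -0.56, and the beta-glucosidases have points past the threshold on both sides.

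The genes nearest to the threshold on its outer side, among those with a symbol, were LBD29, a lateral root transcription factor, at 1.12 ± 0.21 (adjusted p = 0.051), PSAN, WNK9, a kinase, at 1.36 ± 0.26 (adjusted p = 0.055), and hemb2. On its inner side were ECS1 and JAL33.

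Which genes passed depended on single arrays. With array 1 of wild type on solid medium left out 114 genes passed, and with array 2 left out 16. Without array 1 or array 2 of fh1-1 there were 7 and 2, without those of SMIFH2 9 and 4, and without those of control liquid 117 and 79. With an array left out, its group holds 1 array and is taken to vary like the others. LHB1B2 and AT5G02180 passed in all 8 of these fits, 14 of the 123 genes passed in at least 4, and 16 passed in none, JAL33 among them. When array 2 of wild type on solid medium was left out, LHB1B2, BGLU45 and BGLU28 remained of the 14 genes with a symbol. LHB1B2 and BGLU45 remained without array 1 of fh1-1 or either array of SMIFH2, and LHB1B2 alone without array 2 of fh1-1. The sign of the difference was kept by all 123 genes in all 8 fits. With every one of the 38408 probe sets tested together, 3 passed (1 higher and 2 lower), of which AT5G02180 (adjusted p = 0.038) was a gene named here, and LHB1B2 had an adjusted p of 0.060.

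**Figure D5:**
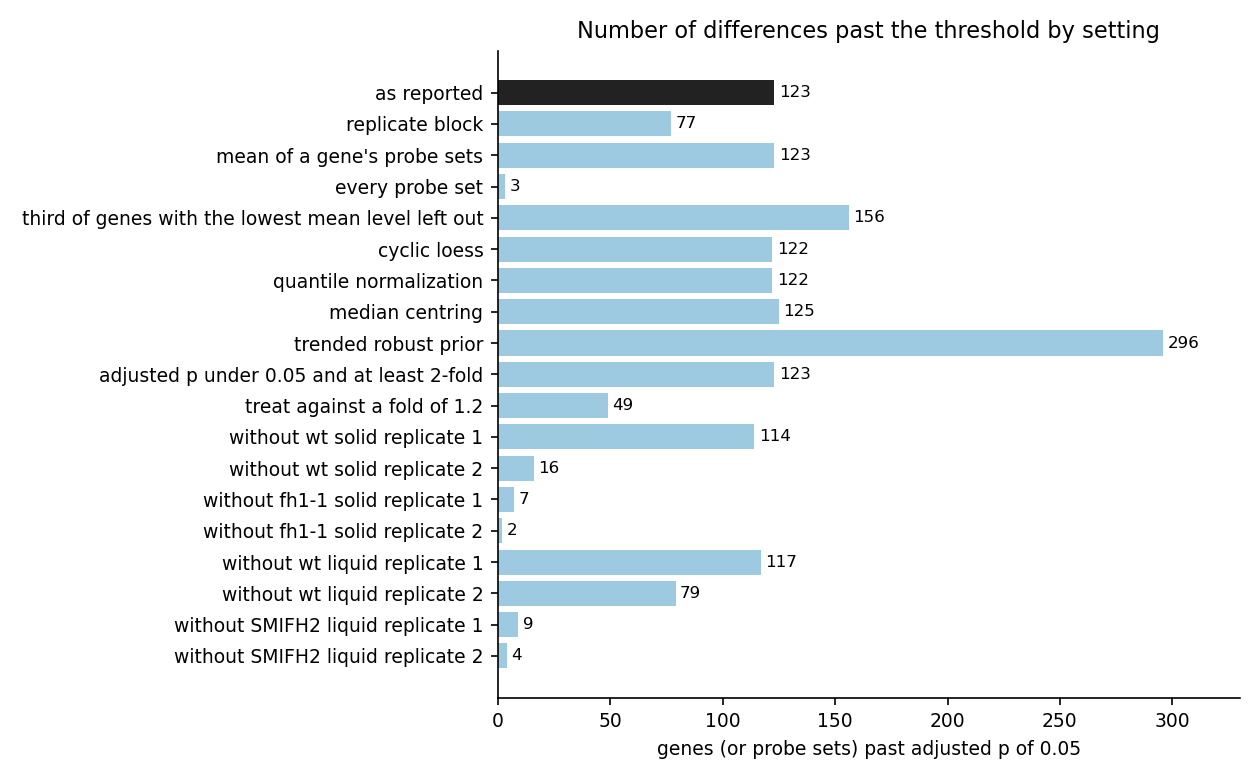
Bars give the number of genes, or of probe sets where every probe set was tested, past an adjusted p of 0.05 for the SMIFH2 effect minus the fh1-1 effect under each setting, with the reported count in black. The count was 123 as reported, between 2 and 117 without single arrays and 3 over every probe set.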

How the data were processed

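Total RNA of whole seedlings was measured on Affymetrix arrays, 2 in each of 4 groups taken from the sample labels. The deposited values are log2 expression, made by the authors with RMA (robust multi-array averaging: background correction, normalization across arrays, summary of a probe set) in Affymetrix Expression Console 1.4, with groups compared in Transcriptome Analysis Console 3.1, per the submitters' processing notes. The genome build of the array annotation is not given in the sources used here, and raw array files were not analysed here.

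Of 38408 probe sets, 16746 were paired with 1 gene, 758 with several and 20904 were not listed. The brightest probe set per gene gave 16554 genes (163 had a choice), of which 1804 had a symbol. Names and gene order came from RefSeq (TAIR10.1), without a match for 136 genes. Group means were fitted with limma 3.58.1 in R 4.3.3 over all 8 arrays (lmFit, eBayes with 4 residual and 5.81 prior degrees of freedom), with Benjamini-Hochberg adjustment over all genes and a threshold of 0.05. The steps were tested on simulated data. Python 3.11.15 with matplotlib 3.10.9 made the figures.

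The contrast, the gene lists and the rule for named genes were chosen with earlier results of these data known. The rule named the 12 highest and 12 lowest genes with a symbol that passed (14 in all), the 3 highest and 3 lowest known by locus code, and up to 3 that passed per list; other list members are examples chosen after their values were seen. The group that stands apart is the one whose removal leaves the other 3 means closest. Alternatives were the repeat number as a block, probe sets of a gene averaged, every probe set, genes whose mean level lay in the lowest 33.3% left out, cyclic loess, quantile normalization, median centring, a trended robust prior, a 2-fold threshold, limma's treat against a fold of 1.2 and omission of each array. List counts at an unadjusted p under 0.05 were recomputed under them after the data were seen. No motif or sequence was examined.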

Additional observations from a re-analysis of the deposited data

Results flagged for a closer look

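The difference of the SMIFH2 and fh1-1 effects passed limma's test in 123 genes, and is a test of 2 effects against each other in 2 media. The 4 genes with a symbol listed next stand out because both effects passed and had opposite signs. The differences were -2.42 for BGLU45, 1.89 for BGLU28, 1.24 for JAL33 and 1.28 for UGT71C1. Medium and light differed between the 2 effects, and their part in these genes cannot be told apart from that of the inhibitor and the mutation. BGLU45 passed in 7 of the 8 fits that left out an array, BGLU28 in 4, UGT71C1 in 2 and JAL33 in 0.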

How the results depend on the processing

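The 123 differences (59 higher, 64 lower) became 77 (39 and 38) with the repeat number as a block, 76 of them shared. The numbers did not pair the samples: repeats of one number deviated from their group means with correlations of -0.06 to 0.01 between groups. Over every probe set 3 passed (1 and 2), with 2.74 prior degrees of freedom and 4231 of 38408 (11%) at an unadjusted p under 0.05. A trended robust prior gave 296 (130 and 166), all 123 among them, and treat 49 (28 and 21). Leaving out single arrays gave 2 to 117 (1 to 60 higher, 1 to 62 lower). The causes of these changes were not tested. Counts over every probe set are out of 38408 probe sets and the other counts out of genes, so their sizes do not compare directly. The SMIFH2 effect passed in 3562 of these probe sets. The other alternatives gave 122 to 156, and the count of 156, with the genes of lowest mean level left out, shared 119. The fh1-1 count of 3734 became 6205 over every probe set, 1417 at 2-fold, 2036 with treat and 2056 to 3952 without single arrays. The SMIFH2 count of 2459 became 916 at 2-fold, 1174 with treat and 1250 to 2396 without single arrays. Without single arrays the beta-glucosidase median ran from -0.14 to 0.27, and the root and shoot medians kept their signs under all alternatives run. At an unadjusted p under 0.05 the alternatives gave 1 to 3 lower Calvin cycle genes, 1 to 4 lower tetrapyrrole and carotenoid genes, 5 to 11 lower jasmonate and pathogen genes, 0 to 4 lower glycosyltransferases, 3 to 10 higher and 2 to 7 lower pectin and cellulose genes, and 1 to 4 lower actin genes. EXPA7, EXPA18 and MGL, near 0, took both signs (-0.24 to 0.43, -0.38 to 0.52 and -0.21 to 0.28). Signal over background was not used here, and 10 of the 123 genes had a group mean under the 25th percentile of the genes.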
